A study of Homo sapiens with 2 samples.

Results

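The solute carriers are the human genes whose symbols begin with SLC and a number, and the mitochondrial SLC25A family was left out. Each PacBio locus of the deposited isoform models was assigned to the GENCODE protein-coding gene with which it shared the most exonic bases on the same strand. Of 325 such genes in the annotation, 155 had an isoform model and 123 had at least 1 listed C-to-U edit position in either library, out of 9176 protein-coding genes with a listed position. Of the 123 genes, 87 were listed in both libraries, 15 in the RBFOX2 library alone and 21 in the enzyme-only library alone (70.7%, 12.2% and 17.1%, against 80.4%, 10.2% and 9.38% of all listed protein-coding genes). A further 32 genes had a model and no listed position. The symbol rule also took in 3 genes that do not carry solutes (SLC2A4RG, SLC4A1AP and SLC7A6OS) and SLC3A2, a heavy chain that anchors carriers in the membrane.

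Both samples were HEK293T cells, an immortalized human embryonic kidney line that the labels call HEK293XT, fixed in methanol and incubated with recombinant APOBEC1, a cytidine deaminase, joined to a nanobody against rabbit IgG. The RBFOX2 library came from cells that had first been given a rabbit antibody against RBFOX2, and the enzyme-only library from cells given the fusion without that antibody, which measures background deamination. Whole cDNA molecules were read by PacBio sequencing. There was 1 library per group, so every comparison is between these 2 libraries, no p-value was computed, and all intervals are exact Clopper-Pearson 95% intervals that cover counting error only. Conversions on 1 molecule are not independent of each other, and the tables do not show which positions shared a read.

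Solute carriers are membrane proteins that move nutrients, ions, metals, nucleotide sugars and metabolites across the plasma membrane and the membranes of organelles. A growing cell line depends on them for amino acids (SLC7A5 with SLC3A2, and SLC1A5), glucose (SLC2A1), nucleosides (SLC29A1), lactate (SLC16A1) and zinc (the SLC39 importers and SLC30 exporters), and on SLC35 proteins to feed nucleotide sugars into the Golgi. RBFOX2 is a splicing regulator that binds UGCAUG in pre-mRNA and also in the 3'UTR. In this assay a cytosine near a bound RBFOX2 protein can be read as uracil, so an edited position marks a place where the enzyme reached the RNA.

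The differentiated kidney tubule is defined by several solute carriers, and SLC12A1, SLC12A3, SLC22A6, SLC22A8, SLC34A1 and SLC5A2 had no isoform model, nor did UMOD and AQP2. The 4 markers of blood and endothelium had none either. Of 5 markers of the line, KRT18 was listed at 417 and 411 reads, VIM at 1367 reads in the RBFOX2 library alone, KRT8 at 23 and PAX2 at 3 reads in the enzyme-only library alone, and NES had no model. A gene with no listed position has no read count in these tables, so an absent entry does not give an expression level.

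Examples of edited positions near the RBFOX2 motif are shown first. They are written 5' to 3' on the transcribed strand of hg38, with UGCAUG and the edited cytosines in capitals, and each lies in the gene's own exons. In SLC39A1, the zinc importer ZIP1, a coding UGCAUG had an edited cytosine on either side, the upstream one in the RBFOX2 library and the downstream one in the enzyme-only library, both at 2 converted reads. In SLC29A1, the nucleoside transporter ENT1, 2 cytosines upstream of a coding UGCAUG were listed in the RBFOX2 library and 1 downstream in the enzyme-only library, each with 1 converted read. The remaining lines show sites of the RBFOX2 library alone in the coding sequence of the zinc exporter SLC30A9 (2 sites) and in the 3'UTR of SLC15A4, a lysosomal histidine and peptide transporter, and of SLC39A10, and the SLC3A2 site found in both libraries.
SLC39A1, chr1:153960322-153960335, minus strand: cuCaUGCAUGaCac
SLC29A1, chr6:44232978-44233005, plus strand: gcCagcCucUGCAUGugcuucgggcCca
SLC30A9, chr4:42067168-42067186, plus strand: UGCAUGggccuuaCuuCua
SLC15A4, chr12:128794077-128794101, minus strand: guCugacuucacugaaacuUGCAUG
SLC39A10, chr2:195736347-195736362, plus strand: UGCAUGuagcuuuCug
SLC3A2, chr11:62888402-62888415, plus strand: cuCccuacUGCAUG

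Solute carrier transcripts were edited in both libraries at similar numbers of positions. The RBFOX2 library listed 1192 positions in 102 of the genes and the enzyme-only library 1062 in 108 of them. Of these, 94 and 93 were listed in both libraries, and 1098 and 969 were found in 1 library alone, called unshared below. The shared positions were 7.89% (6.42 to 9.56) and 8.76% (7.13 to 10.6) of each library's list, against 10.5% and 12.5% in other protein-coding genes. The ratio of unshared positions, RBFOX2 over enzyme-only, was 1.13 (1.04 to 1.24) in the solute carriers, 1.208 (1.197 to 1.219) in the other protein-coding genes, 1.21 (1.04 to 1.41) in the SLC25 carriers and 1.201 over all genes. The reads of listed solute carrier genes summed to 13866 and 13865.

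Most positions rested on 1 converted read. In the RBFOX2 library 1067 positions had 1 converted read, 107 had 2 and 18 had 3 or more, against 988, 66 and 8 in the enzyme-only library. The share with at least 2 was 10.5% (8.80 to 12.4) and 6.97% (5.51 to 8.67), and in other protein-coding genes 17.2% (16.98 to 17.4) and 12.2% (11.96 to 12.4). The deposited tables hold only positions converted in more than 0.2% of the reads of the whole gene, so a gene with 500 reads or more cannot list a position with 1 converted read. That read number was reached by 4.90% and 5.50% of listed solute carrier loci and by 11.5% and 10.01% of those of other genes. Among genes under 500 reads in both libraries, the shares were 6.73% (5.32 to 8.38) and 4.42% (3.22 to 5.91) in the solute carriers and 8.93% (8.75 to 9.10) and 5.81% (5.65 to 5.97) in other genes. The RBFOX2 interval of the solute carriers lay below that of the other genes, and the enzyme-only interval reached their value. Depth still differed there, with median gene reads of 91.5 and 92 in the solute carriers and 121 and 110 in the others, and its part in the shares was not tested.

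**Figure D1:**
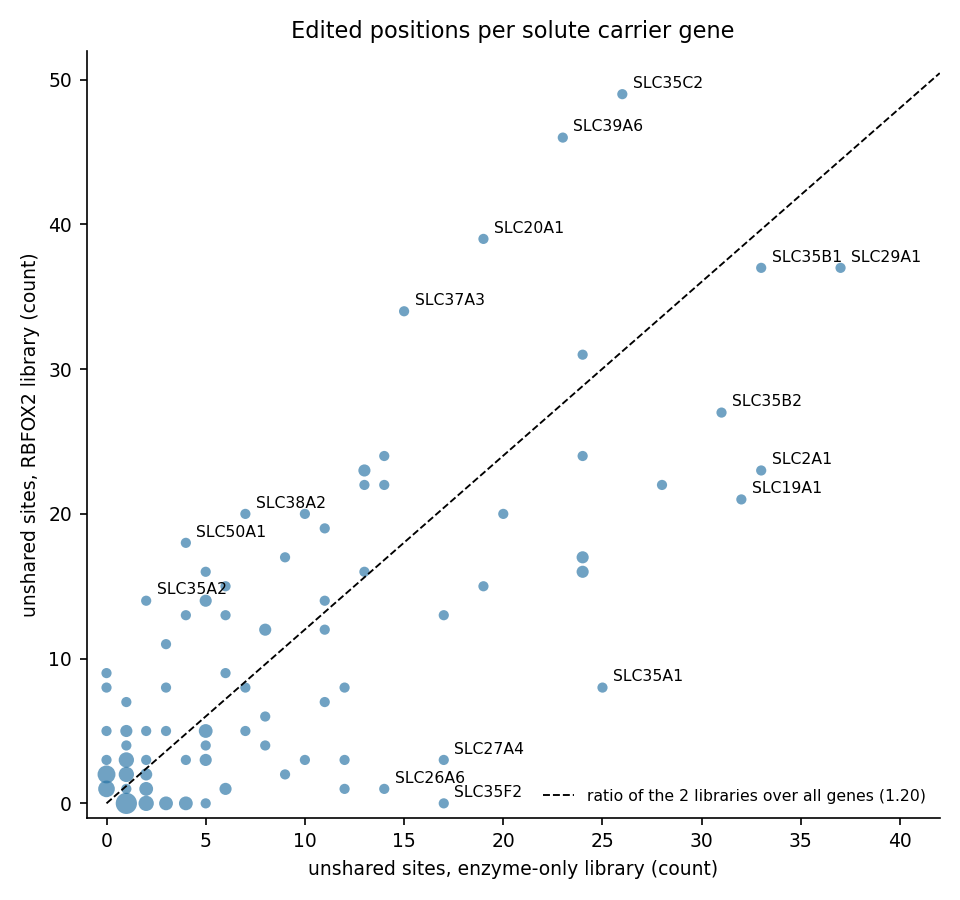
Unshared edited positions of each of the 123 solute carrier genes, enzyme-only library on the x axis and RBFOX2 library on the y axis (counts); larger points hold several genes at the same counts, and the dashed line is the ratio of the libraries over all genes, 1.201. With RBFOX2 counts first, SLC35C2 (49 and 26), SLC39A6 (46 and 23) and SLC20A1 (39 and 19) lie above the line, and SLC35A1 (8 and 25), SLC27A4 (3 and 17) and SLC35F2 (0 and 17) below it.

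For most genes that could be read, per-gene counts were not resolved from the library totals, and for a few they departed from them. The log2 ratio of unshared positions, RBFOX2 over enzyme-only, divided by the ratio of library totals after adding 0.5 to each count, could be read in the 39 solute carriers with at least 20 positions over both libraries, and the other 84 had fewer. The median was 0.07, and that of all 3552 protein-coding genes with as many positions was 0.08. Of the 39 genes, 3 lay above 1 (7.69%; 1.62 to 20.9) and 2 below -1 (5.13%; 0.63 to 17.3), against a background of 16.8% above 1 and 14.6% below -1 among all such protein-coding genes. The interval lay above 0 in 2 of them (SLC50A1 and SLC37A3) and below 0 in 3 (SLC27A4, SLC35A1 and SLC19A1), against 15.1% and 14.4% of all such protein-coding genes. Intervals were wide, lying wholly between -1 and 1 in 3 of the 39, so one that includes 0 does not show that a gene followed the totals.

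**Figure D2:**
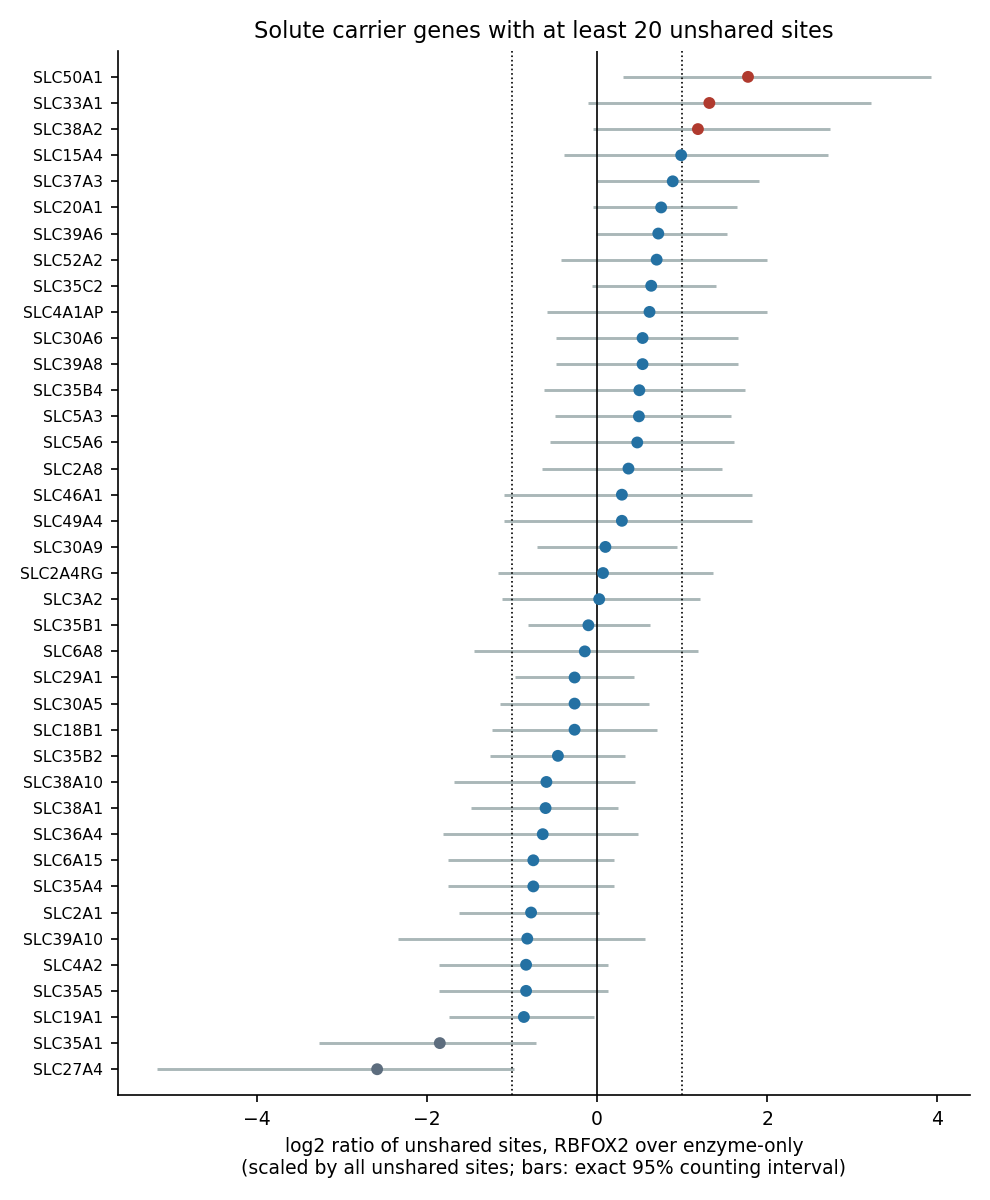
The log2 ratio of unshared positions (x axis, RBFOX2 over enzyme-only, scaled by library totals) of the 39 solute carriers with at least 20 positions, 1 per line, with exact 95% counting intervals; dotted lines mark -1 and 1. SLC50A1, SLC33A1 and SLC38A2 lie above 1, SLC35A1 and SLC27A4 below -1, and most intervals cross 0.

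The SLC35 and SLC33 proteins supply the endoplasmic reticulum and Golgi with nucleotide sugars, ATP, sulfate donors and acetyl-CoA. The 21 listed genes of this class held 254 and 239 unshared positions (RBFOX2, then enzyme-only, as in all pairs that follow), a log2 ratio of -0.18 (-0.44 to 0.08). This interval and those of the classes below pool positions over genes and do not cover differences between genes. How often sets of as many protein-coding genes leave 0 was not counted. Without SLC35C2 they held 205 and 213, and the interval then lay below 0 (-0.32; -0.60 to -0.04). SLC35C2 was left out because its share of the class positions differed most between the libraries. The same holds for SLC38A2, SLC2A1, SLC19A1 and SLC22A5 in the classes below. The direction of each such shift was set by that choice, so an interval that leaves 0 after it shows no class difference. SLC35C2, of the fucose-related branch, had 49 positions at 171 reads and 26 at 135 reads, the largest number in the RBFOX2 library among these genes (0.64; -0.06 to 1.39). SLC35B1, which exchanges ATP for ADP in the endoplasmic reticulum, had 37 and 33 at 419 and 364 reads (-0.10; -0.82 to 0.62). SLC35B2, which brings the activated sulfate PAPS into the Golgi, had 27 and 31 at 194 and 231 reads (-0.46; -1.26 to 0.33). Neither of these differed beyond counting error.

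SLC35A1, the Golgi transporter of CMP-sialic acid (ENSG00000164414, chr6:87472974-87512330, plus strand), stood at the other end with 8 and 25 positions at 78 and 65 reads, so fewer positions came from more reads in the RBFOX2 library (-1.85; -3.27 to -0.71). SLC35A2, its UDP-galactose counterpart, had 14 and 2 at 94 and 98 reads and fell short of 20 positions (2.27; 0.42 to 5.72). SLC33A1, the acetyl-CoA transporter, had 16 and 5 at 89 and 88 reads (1.32; -0.10 to 3.22). SLC35A5 had 16 and 24, and SLC35A4 17 and 24, both with intervals that include 0. SLC35F2, also named after its values were seen, had 17 positions in the enzyme-only library at 72 reads and none listed in the RBFOX2 library. Set against a floor of 3 positions this is 6.81-fold after scaling, and the counting interval of its log2 ratio lay below -2.31. In the other direction, SLC35G1 had 8 and 0 (2.22-fold on that floor, interval above 0.51). SLC12A9 had 9 and 0 (2.497-fold, interval above 0.72), and both were also named after their values were seen. The library without a listed position gives no read count for these genes, so their depth there is not known. The folds and intervals of these genes therefore rest on position counts alone and are not set against reads. Of all listed protein-coding genes, 10.2% were listed in the RBFOX2 library alone and 9.38% in the enzyme-only library alone. How many of those had counts as large was not counted.

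Zinc carriers keep cytosolic zinc low by export (SLC30) and refill it by import (SLC39). The 22 listed genes for zinc and other metals held 221 and 146 unshared positions, a log2 ratio of 0.33 (0.03 to 0.65). Without SLC30A6, whose locus covers another gene, they held 198 and 133, and the interval then included 0 (0.31; -0.01 to 0.64). SLC39A6, the importer ZIP6 (ENSG00000141424, chr18:36108532-36129829, minus strand), had 46 positions at 256 reads and 23 at 251 reads (0.72; -0.02 to 1.52). With its 12 shared positions included, 14 had at least 2 converted reads in the RBFOX2 library, against 1 in the other. SLC30A9, the mitochondrial zinc exporter ZnT9, had 31 and 24 at 238 and 210 reads (0.10; -0.71 to 0.94). SLC39A10, the close relative ZIP10, had 8 and 12 at 221 and 231 reads (-0.82; -2.35 to 0.56). SLC30A1, the plasma membrane exporter ZnT1, had 7 and 1 at 15 and 17 reads.

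The deepest zinc importers were SLC39A3 and SLC39A1. SLC39A1 had 13 and 4 unshared positions at 643 and 510 reads, and SLC39A3 had 5 and 1 at 666 and 559 reads. At these depths only positions with 2 or more converted reads could be listed, so their counts cannot be set beside those of shallower genes.

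Carriers of amino acids and peptides held 164 and 159 unshared positions in 21 listed genes (-0.22; -0.54 to 0.10), and 144 and 152 without SLC38A2 (-0.34; -0.68 to 0.00, the upper end just below 0). SLC38A2 was left out for its gap in share, so the direction of that shift was set by the choice. SLC38A1 and SLC38A2 are neighbouring genes for the glutamine transporters SNAT1 and SNAT2, and their counts went opposite ways. SLC38A1 had 22 and 28 at 311 and 290 reads (-0.61; -1.49 to 0.25), and SLC38A2 had 20 and 7 at 320 and 260 reads (1.19; -0.05 to 2.73). Each interval includes 0, and the intervals overlap. SLC15A4 had 15 and 6 at 63 and 58 reads (0.99; -0.39 to 2.71), the value just short of 1.

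SLC3A2, the heavy chain CD98 that brings SLC7A5 and SLC7A11 to the surface, was the deepest carrier gene listed in both libraries, at 946 and 949 reads, with 16 and 13 unshared positions (0.02; -1.11 to 1.21). Its partner SLC7A5, the large neutral amino acid transporter LAT1, had 2 and 1 at 657 and 609 reads. SLC1A5, the glutamine transporter ASCT2, was listed in the enzyme-only library alone, with 2 positions at 989 reads. SLC7A11, the cystine-glutamate exchanger, had 4 positions at 29 reads and SLC2A3, the glucose transporter GLUT3, had 1 at 2 reads, both in the enzyme-only library alone. These numbers are too small to place either library above the other.

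The sugar class, set by family number, held 113 and 80 positions in 9 genes (0.23; -0.19 to 0.67), and 89 and 66 without SLC5A3, whose locus also covers another gene (0.16; -0.31 to 0.65). The family number also placed here SLC5A6, a vitamin carrier (22 and 13), and SLC5A5, an iodide carrier (2 and 0). The class totals are therefore not values of sugar carriers alone. Without SLC2A1, left out for its gap in share, the class held 90 and 47, and the interval lay above 0 (0.67; 0.15 to 1.21). The direction of that shift was set by the choice of gene. That total still held the 24 and 14 positions of the SLC5A3 locus, most of them only in exons of the other gene. The class was not recomputed without both SLC2A1 and SLC5A3. SLC50A1, a sugar exporter of the SWEET family (ENSG00000169241, chr1:155135330-155138854, plus strand), had 18 and 4 at 141 and 124 reads and the highest ratio of the 39 genes (1.77; 0.30 to 3.93). SLC2A1, the glucose transporter GLUT1, lay on the other side with 23 and 33 at 107 and 130 reads (-0.78; -1.62 to 0.03). Of the phosphate carriers, 4 genes held 78 and 39 positions (0.73; 0.16 to 1.33). SLC20A1, the sodium-phosphate importer PiT1 (ENSG00000144136, chr2:112645926-112663821, plus strand), gave 39 and 19 of them at 280 and 237 reads (0.75; -0.05 to 1.65), and SLC37A3, of the sugar-phosphate exchanger family, gave 34 and 15 at 145 and 115 reads (0.89; 0.00 to 1.90, the lower end just above 0).

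Carriers of monocarboxylates and other acids held 27 and 51 positions in 12 genes (-1.17; -1.91 to -0.48), and those of cations, chloride and bicarbonate 44 and 77 in 13 genes (-1.06; -1.64 to -0.52). The first class was led by SLC27A4, the fatty acid transport protein FATP4 (ENSG00000167114, chr9:128340527-128361483, plus strand), with 3 and 17 positions at 137 and 180 reads, the lowest ratio of the 39 genes (-2.59; -5.18 to -0.98). SLC16A1, the lactate transporter MCT1, had 8 and 3 at 541 and 516 reads. In the second class the chloride-bicarbonate exchanger SLC4A2 had 16 and 24 at 138 and 139 reads (-0.83; -1.86 to 0.12), and the chloride importer SLC12A2 had 2 and 1 at 47 and 34. SLC26A6, an anion exchanger named after its values were seen, had 1 and 14 at 57 and 55 reads (-3.54; -9.47 to -1.36). The first total was not recomputed without SLC27A4, nor the second without SLC26A6, so how far each rests on that gene is not known. Single genes with at least 20 positions had intervals above 0 in 15.1% and below 0 in 14.4% of all protein-coding genes. The class intervals do not cover such differences between genes.

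Nucleoside carriers held 49 and 45 positions in 4 genes (-0.14; -0.76 to 0.48), most of them in SLC29A1 with 37 and 37 at 239 and 225 reads. Carriers of vitamins, choline and heme held 81 and 66 in 7 genes (0.03; -0.46 to 0.52), and 60 and 34 without SLC19A1 (0.55; -0.08 to 1.21). SLC19A1, the reduced folate carrier, had 21 and 32 at 288 and 291 reads (-0.86; -1.74 to -0.03), and SLC44A1, the choline carrier, had no listed position. Carriers of organic ions and vesicles held 26 and 38 in 4 genes (-0.80; -1.59 to -0.05), and 25 and 26 without the carnitine carrier SLC22A5, which had 1 and 12 (-0.32; -1.17 to 0.53). The 3 genes that are not carriers by function held 36 and 23, and 3 further genes in no class held 5 and 6.

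UGCAUG was about as frequent in solute carrier exons as elsewhere. Of the 124 loci of listed genes, 60 (48.4%; 39.3 to 57.5) held at least 1 copy in their exons, against 52.4% (51.4 to 53.4) of other protein-coding loci, with 2.28 and 2.52 copies per 10 kb of exon. Genes with a copy held 724 and 650 unshared positions (log2 ratio -0.11; -0.26 to 0.05), and genes without one 374 and 319 (-0.04; -0.25 to 0.18). Presence of the motif in the exons therefore did not separate genes by their ratio beyond counting error.

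The solute carriers had no resolved excess of RBFOX2 sites near the motif over their own exonic cytosines, at 20, 50 or 200 nt. Of unshared exonic sites, 31 of 1097 (2.83%; 1.93 to 3.99) lay within 50 nt of UGCAUG with the RBFOX2 antibody and 18 of 968 (1.86%; 1.11 to 2.92) without it, a ratio of shares of 1.52 (0.82 to 2.89). The cytosines in the exons of the same genes, weighted by the sites of each gene, gave an expected share of 2.56% and 2.58%, so observed over expected was 1.10 (0.75 to 1.56) and 0.72 (0.43 to 1.13). In other protein-coding genes it was 1.53 (1.49 to 1.58) and 0.95 (0.91 to 1.00), and in the SLC25 carriers 1.60 (0.95 to 2.49) and 0.84 (0.27 to 1.95). At 50 nt the RBFOX2 interval of the solute carriers holds both 1 and the value of the other genes, so neither is distinguished at this number of sites. Within 20 nt, 16 and 7 sites gave 1.23 (0.71 to 2.00) and 0.59 (0.24 to 1.21), and within 200 nt, 103 and 101 sites gave 1.00 (0.82 to 1.199) and 1.06 (0.87 to 1.28). Other genes gave 1.64 (1.57 to 1.72) and 0.90 (0.84 to 0.97) within 20 nt, and 1.27 (1.25 to 1.29) and 1.04 (1.01 to 1.06) within 200 nt, where the RBFOX2 interval of the solute carriers lay below theirs.

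**Figure D3:**
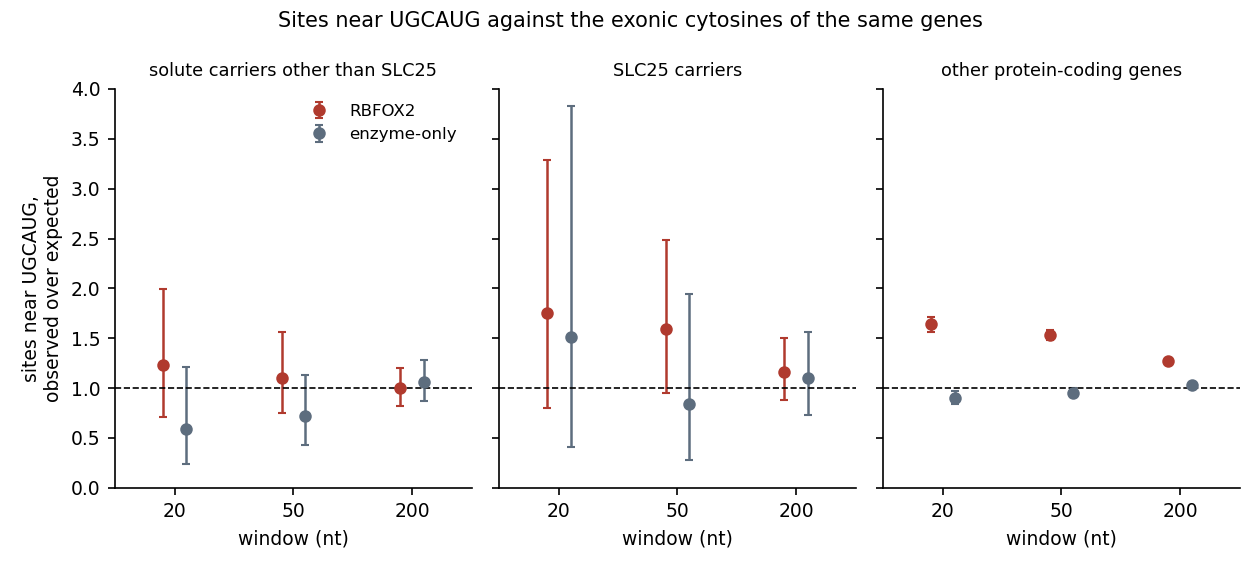
Share of unshared exonic sites within 20, 50 or 200 nt of UGCAUG (x axis) divided by the share expected from the exonic cytosines of the same genes (y axis), for the solute carriers, the SLC25 carriers and other protein-coding genes; bars are exact 95% counting intervals of the observed share and the dashed line marks 1. The RBFOX2 values of the solute carriers, 1.23, 1.10 and 1.00, have intervals that include 1, while those of other genes do not.

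The 31 motif sites of the RBFOX2 library fell in 19 genes and the 18 of the enzyme-only library in 14, with 4 genes in both. Of the 31 sites, 20 lay 3' of the nearest UGCAUG and 11 lay 5' of it, and of the 18 sites 10 and 8. Zinc and other metal carriers held 11 and 2 of them, nucleotide sugar and Golgi carriers 8 and 5. Of the 31, 17 were in coding sequence and 13 in the 3'UTR. The most converted reads at an unshared motif site was 2, reached in the RBFOX2 library in SLC15A4 (63 reads, 3.17%), SLC16A1 (541 reads, 0.37%), SLC39A1 (643 reads, 0.31%) and SLC39A3 (666 reads, 0.30%), and in the enzyme-only library in SLC39A1 (510 reads, 0.39%). SLC35A4 held the most motif sites, 3 and 5, and SLC39A8 held 3 and 0, each with 1 converted read, and both are named after their values were seen. SLC1A3, the glutamate transporter EAAT1, had 2 and 0 in its 3'UTR. The SLC3A2 site, 6 nt from UGCAUG, had 3 of 946 reads converted with the antibody and 2 of 949 without.

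The edited cytosine had A or U on its 5' side, the context APOBEC1 prefers, more often than exonic cytosines did. The share was 69.4% (66.5 to 72.1) of unshared exonic sites with the RBFOX2 antibody and 65.5% (62.4 to 68.5) without it, where 45.7% and 45.8% were expected from the exonic cytosines of the same genes. Other genes gave 71.8% (71.5 to 72.1) and 63.9% (63.5 to 64.2). The library difference in the solute carriers was within overlapping intervals.

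The share of sites in the 3'UTR was higher in the RBFOX2 library, with intervals that overlap, and other genes had similar shares. It was 42.3% (39.3 to 45.2) of the unshared positions with the RBFOX2 antibody and 36.6% (33.6 to 39.8) without it, with 27.97% and 27.98% expected from the exonic cytosines of the same genes, and 42.6% and 36.4% in other genes. Coding sequence took 51.4% (48.4 to 54.4) and 56.9% (53.7 to 60.0). A position annotated both ways was counted as coding, and counting it as 3'UTR instead gave 62.1% and 56.8%. Over the 39 genes with at least 20 positions, the 3'UTR share was higher in the RBFOX2 library in 23, lower in 15 and equal in 1, and over all such protein-coding genes with a position in both libraries it was higher in 58.3% and lower in 37.8%.

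SLC39A6 was the only one of these genes whose 3'UTR intervals did not overlap, with 25 of 46 positions there for RBFOX2 (54.3%; 39.01 to 69.1) and 4 of 23 for the enzyme alone (17.4%; 4.95 to 38.8). How often such intervals lie apart over all protein-coding genes was not counted. SLC20A1 had 26 of 39 (66.7%; 49.8 to 80.9) and 7 of 19 (36.8%; 16.3 to 61.6), and SLC38A2 had 16 of 20 and 4 of 7. As log2 ratios of 3'UTR positions these were 2.24 (0.85 to 4.36) in SLC39A6, 1.56 (0.39 to 3.08) in SLC20A1 and 1.61 (0.10 to 3.77) in SLC38A2. They were the only genes of the 39 whose whole interval of this ratio was positive. How often that occurs over all protein-coding genes was not counted either, so no background share stands beside them. SLC39A8, the zinc and manganese importer ZIP8, went the other way in share, with 11 of 23 (47.8%; 26.8 to 69.4) and 11 of 13 (84.6%; 54.6 to 98.1). SLC35A1 had few RBFOX2 positions, but 7 of its 8 lay there (87.5%; 47.3 to 99.7), against 9 of 25 (36%; 17.97 to 57.5).

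**Figure D4:**
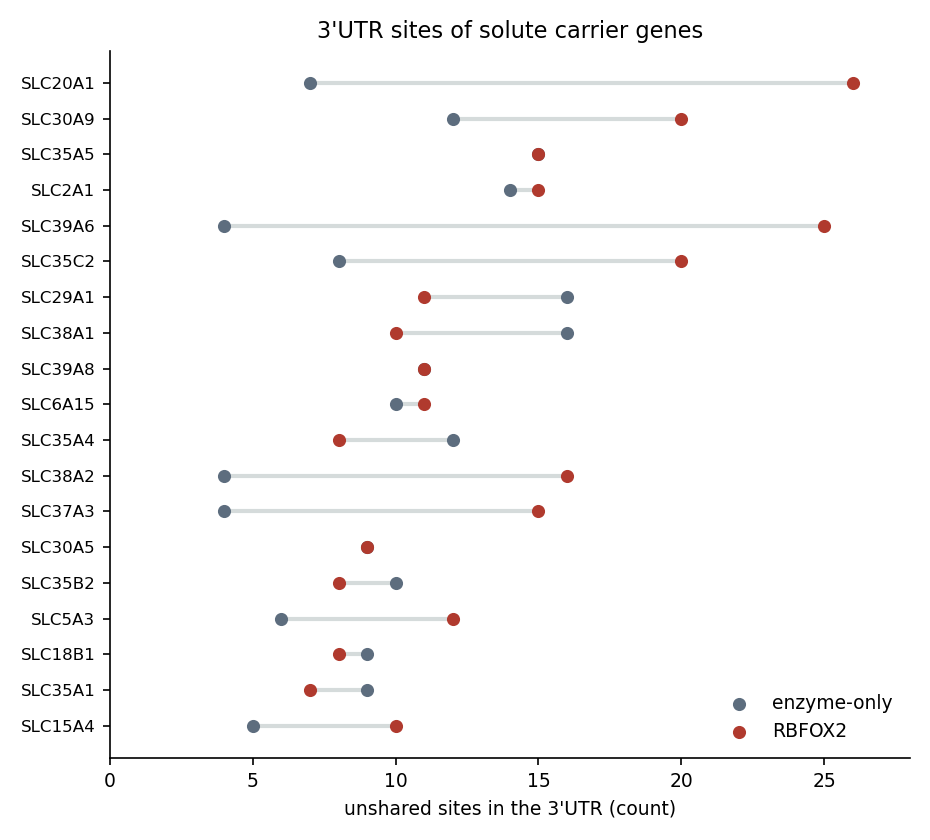
Unshared positions in the 3'UTR (x axis, count) in the RBFOX2 and enzyme-only libraries for the solute carriers with at least 20 unshared positions and at least 14 in the 3'UTR over both libraries, 1 gene per line. With RBFOX2 counts first, SLC39A6 (25 and 4), SLC20A1 (26 and 7), SLC35C2 (20 and 8) and SLC38A2 (16 and 4) have the widest gaps toward that library, and SLC29A1 (11 and 16) and SLC38A1 (10 and 16) lie the other way.

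**Figure D5:**
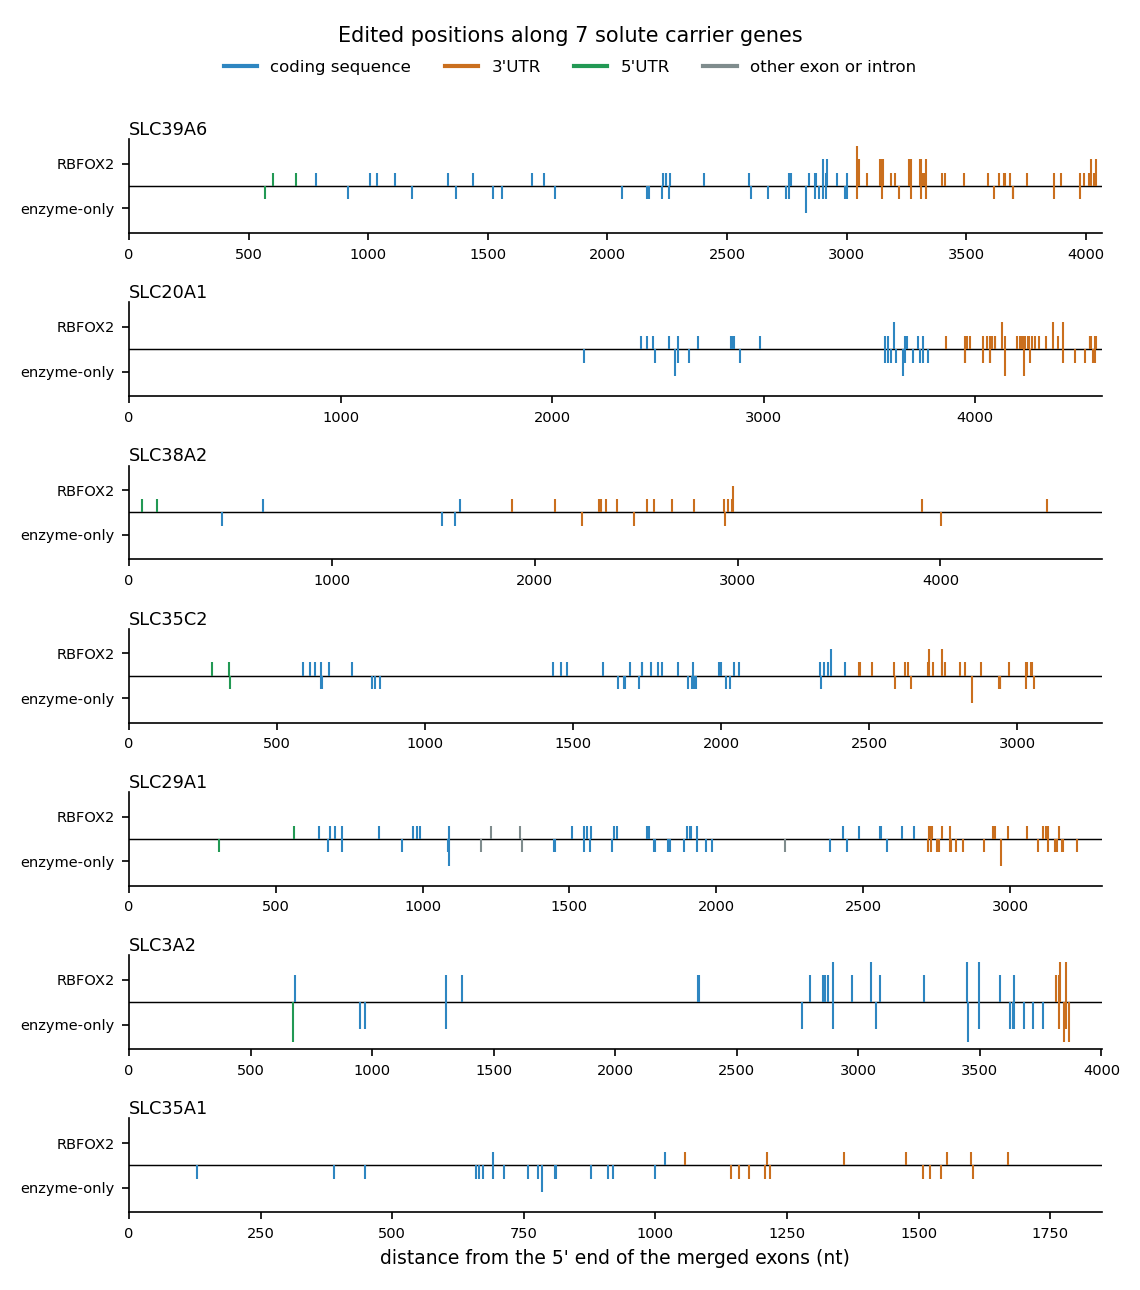
Edited positions, shared ones included, along the merged exons of 7 solute carriers, with the distance from the 5' end in nt on the x axis, RBFOX2 sites above the line and enzyme-only sites below it, coloured by region; the height of a line grows with the converted reads up to 3. RBFOX2 sites of SLC39A6 and SLC20A1 are dense in the 3'UTR, and SLC35A1 has 7 of its 8 unshared RBFOX2 sites in the 3'UTR and 9 of 25 enzyme-only ones.

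The strongest positions were few. In all, 25 positions in 9 genes had at least 3 converted reads in a library, 14 in the 3'UTR, 22 after A or U, 10 shared and 1, in SLC3A2, within 50 nt of the motif, and 4 of the 25 lay in the loci of SLC5A3 and SLC30A6, which cover other genes. The exonic cytosines of the same genes gave an expected 5.98% within 50 nt of the motif. Of the 25, 18 lay in 4 genes with at least 500 reads. SLC35B1 had 6 of 419 and 5 of 364 reads converted at 1 shared 3'UTR position (1.43% and 1.37%). SLC39A6 had 6 of 256 and 1 of 251 at a shared 3'UTR position (2.34% and 0.40%). SLC30A9 had 4 of 238 and 2 of 210 (1.68% and 0.95%). SLC3A2 had 5 of 946 reads at a coding position of the RBFOX2 library alone. SLC39A1 had 4 of 643 at a 3'UTR position of that library alone, with another at 3 reads 2 nt away. Their surroundings, with the edited cytosine in capitals, were as follows.
SLC35B1, chr17:49701342-49701362, minus strand: gaguuccaguCuuuuuuaaua
SLC39A6, chr18:36109546-36109566, minus strand: aaaaaguuguCauaguuucag
SLC30A9, chr4:42078530-42078550, plus strand: gaaccagauuCuuuacuuuua
SLC3A2, chr11:62885550-62885570, plus strand: ccccuguuuuCagcuacgggg
SLC39A1, chr1:153959279-153959299, minus strand: augauaaacaCugagcugcca

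The 94 shared positions lay in 28 genes, 39 in the 3'UTR and 50 in coding sequence, and 79 of them (84.0%) followed A or U. In 59 both libraries had 1 converted read. The converted share of the gene's reads was low at all of them, at most 3.13% for RBFOX2 and 2.63% for the enzyme alone, with medians of 0.45% and 0.44%. SLC39A6 held 12, SLC20A1 10, SLC35B1 9 and SLC3A2 6.

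Sites clustered more within a library than between libraries. Of unshared exonic sites, 22.2% (19.8 to 24.8) of those of the RBFOX2 library had another of that library within 10 nt, and 12.5% (10.6 to 14.6) had one of the enzyme-only library. For enzyme-only sites the shares were 18.9% (16.5 to 21.5) and 13.4% (11.3 to 15.7). The other protein-coding genes gave 25.997% and 14.5% for RBFOX2 sites and 21.8% and 17.2% for enzyme-only sites. Whether neighbouring conversions lay on the same molecule cannot be read from these tables.

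On the canonical transcripts, 532 and 531 unshared sites could be placed, of which 49.8% (45.5 to 54.1) and 51.98% (47.6 to 56.3) were synonymous and 46.1% (41.8 to 50.4) and 44.1% (39.8 to 48.4) changed an amino acid. All coding cytosines of the same genes gave 48.1% and 47.5% synonymous changes, of which the second lay just below the enzyme-only interval. Sites that would make a stop codon numbered 22 (4.14%; 2.61 to 6.19) and 21 (3.95%; 2.46 to 5.98), with 4.73% and 4.78% expected. Of these, 5 had 2 converted reads and none more, and their glutamine codons, in capitals below, were codon 240 of SLC16A1 at 541 reads, 347 of SLC35C2 at 171, 728 of SLC39A6 at 256 and 656 of SLC4A1AP at 246 in the RBFOX2 library and 39 of SLC39A10 at 231 reads in the enzyme-only library. The SLC16A1 site is its motif site named above.
SLC16A1, chr1:112917678-112917698, minus strand: acacccuaaaCAAgagaaacg
SLC35C2, chr20:46350443-46350463, minus strand: ccggagcagcCAGcgggagga
SLC39A6, chr18:36109669-36109689, minus strand: uuucuuuuuaCAGaaugcugg
SLC4A1AP, chr2:27687935-27687955, plus strand: aaacaugucuCAAcuuagcga
SLC39A10, chr2:195680147-195680167, plus strand: gcuucacagaCAGcaucgugg

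Isoforms were compared by editsC, the percentage of an isoform's exonic cytosines that were listed as edited. The 1131 isoforms of the 123 genes had a median editsC of 1.78% with the antibody and 1.49% without it, against medians of 2.11% and 1.71% over all 105883 isoforms of protein-coding genes with a site. Of the solute carrier isoforms, 601 (53.1%) were higher in the RBFOX2 library and 464 lower, and 56.8% of all coding isoforms were higher. Against a straight line fitted over all coding isoforms, 26 isoforms of 6 genes lay more than 1.5 SD above (2.30%, with 6.5% over all coding isoforms, and 21 isoforms of 4 genes, 1.89%, without the SLC5A3 and SLC30A6 loci) and 9 of 2 genes below (0.80%, with 2.46%). A position is counted in every isoform that holds it, so isoforms of 1 gene are not independent. The tables do not assign converted reads to isoforms, so editsC also differs between isoforms by their number of cytosines. In SLC20A1, isoforms of 736 and 417 cytosines held the same 39 RBFOX2 positions, at 5.30% and 9.35%. These values therefore do not show editing particular to an isoform.

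The 6 genes with isoforms above the line included SLC35C2 (7 of 28 isoforms), SLC39A6 (6 of 16), SLC20A1 (5 of 13) and SLC35B1 (3 of 27). In SLC39A6 the isoforms spanned 5.13% to 17.7% with the antibody against 2.56% to 5.21% without, and in SLC20A1 5.30% to 14.9% against 2.58% to 6.76%. The genes with isoforms below it were SLC35A1 (7 of 9), at 1.28% to 3.77% and 6.23% to 10.4%, and SLC26A6 (2 of 20). The ranges of the libraries lay apart in SLC35A1 and overlapped slightly in SLC39A6 and SLC20A1. Isoforms of a gene share positions, so such a range does not measure a spread. Ranges also lay apart in carriers without isoforms beyond the line, among them SLC50A1 (4.57% to 6.88% and 0.74% to 1.54%) and SLC27A4 (0.30% to 0.67% and 1.71% to 3.38%). How often they lie apart over all protein-coding genes was not counted.

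In 2 loci the positions belonged mostly to another gene. The locus assigned to SLC5A3, the myo-inositol transporter, also covers MRPS6, and 21 of its 24 unshared RBFOX2 positions and 11 of its 14 enzyme-only positions lay only in MRPS6 exons. The locus assigned to SLC30A6 covers YIPF4, with 23 of 23 and 12 of 13 only in its exons. Both supplied isoforms above the fitted line (3 of 8 and 2 of 13). Over all the genes, 95.4% of RBFOX2 and 97.2% of enzyme-only unshared positions lay in exons of the named gene.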

How the data were processed

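Per the labels, both libraries were made from total RNA with a PacBio Iso-Seq kit, and the build is hg38. The study's methods name pbmm2 alignment and the authors' own edit caller, and a kit other than that of the labels. For each position the authors deposited a count of converted reads, a count of reads of the whole gene, an edit fraction (the first count over the second, always above 0.002) and a confidence score, which was not used. A deposited table of isoform models gave exons and no expression.

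Loci were assigned to GENCODE 44 genes with bedtools 2.31.1. A site was a distinct position on its gene's strand, and 2 opposite-strand positions were left out. Distances to UGCAUG were taken on the genome, so they can span introns. Shared positions entered only the totals, the depth of conversion and their own description. Intervals came from scipy 1.17.1, and for ratios treat the RBFOX2 count as a binomial share of both counts. Observed over expected was tested on simulated data. No variants were removed here. Read depth is given as reads of listed genes, with a median of 84 and 72 reads over listed solute carrier loci.

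Named genes were the 10 with most unshared positions, the 5 highest and 5 lowest ratios among genes with at least 20, the 8 with the most converted reads at a motif site, and 20 carriers known from growing cells. 1 named gene is not reported here. Classes followed the family number. Members, lists and classes were chosen with earlier results of these data known.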

Additional observations from a re-analysis of the deposited data

How the results depend on the processing

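With 1 library per group, no difference has a replicate check. No paired analysis was possible because the groups share no replicate number. Of 92 alternative values, 77 kept within the counting interval of the main value, within the spread over isoforms for editsC or, for counts, within 1.5 times, 15 moved and none reversed. Counts and shares have no sign that could reverse, and a crossing of 1 in observed over expected was counted as kept. With GCAUG it was 0.98 and 0.82, and within 200 nt of UGCAUG 1.00 and 1.06, against main values of 1.10 and 0.72 (RBFOX2, enzyme-only). The share with at least 2 converted reads was 8.29% in the RBFOX2 library when loci over several genes were left out, and 6.73% and 4.42% (RBFOX2, enzyme-only) in genes under 500 reads, an alternative chosen after seeing the data, as were leaving out SLC5A3 and SLC30A6 and leaving out the genes that are not carriers, neither of which moved the pooled shares and counts recomputed under them. Class totals without SLC5A3, SLC30A6 or the gene of the largest gap were also added after seeing the data. With at least 2 converted reads, observed over expected near UGCAUG was 0.96 (0.26 to 2.38) on 4 of 97 RBFOX2 sites. Enzyme-only sites gave 0.41 (0.01 to 2.18), with 1 of 55 near the motif. Both intervals include 1, and only the enzyme-only value was counted as moved. At that setting the A or U share was 79.4% and 74.5%, and the 3'UTR share 55.7% and 40%. Counting 3'UTR before coding sequence gave 62.1% and 56.8%. Genes above 1 and below -1 in log2 ratio numbered 9 and 9 with at least 10 positions, 0 and 0 with at least 50 (10 genes), and 5 above with shared positions kept. The cause of these moves was not tested beyond the fewer or more genes and sites that each setting holds.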
